A study of Mus musculus with 12 samples.

Results

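Messenger RNA levels in mouse brain 12 h after photodynamic therapy were compared with those of control brain. The comparison took every gene whose deposited value was above 0.5 FPKM (reads scaled to gene length and a total per library) in at least 3 of 6 libraries. Of these libraries 3 were from control mice and 3 from treated mice, and 16414 of the 54532 genes listed were left. Treatment consisted of 20 mg/kg of 5-aminolevulinic acid (5-ALA) and, 30 min afterwards, laser light of 635 nm at 20 J per square centimetre, and the brains of treated mice were collected 12 h later. Control mice carry the title PBS and the label untreated, and none of the groups used here had light alone or 5-ALA alone, so the effects of drug, light and handling cannot be told apart. All animals were perfused with saline before RNA was taken with Trizol. BALB/c mice are named in the description of the source but the strain is entered as C57BL/6, and neither the region of the brain nor the hour of collection is stated. The series has 12 libraries in all, the other 6 being from 1.5 h and 48 h after the treatment.

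5-ALA is the starting compound of the heme pathway, and cells given an excess of it accumulate protoporphyrin IX, which passes light energy to oxygen and so produces reactive oxygen species. Cells with damaged proteins release the transcription factor HSF1 from chaperones, and HSF1 then drives the heat shock genes. Calcium entry and growth factor signals switch on immediate early genes such as Fos through pre-existing factors, while NF-kB and STAT3 carry cytokine signals in glia and vessels. Resting microglia, the immune cells of the brain, are known by surface proteins such as P2RY12 and TMEM119, and myelin, blood vessels and neurons are likewise known by marker genes, which are used here to describe the tissue.

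The 6 libraries were of similar depth, with 15746042 to 17103868 reads recovered per library. The totals that the deposited values imply for scaling were not these reads. In control replicates 1, 2 and 4 they were 17310152, 17648995 and 17485004, each above the reads recovered. In 12 h replicates 1, 2 and the unnumbered library they were 15046589, 16143740 and 15923822, each below the reads recovered. The reason for this was not tested. Across genes, Pearson correlations of log2 values were 0.981 to 0.988 within the groups and 0.925 to 0.935 between them, and no library of either group stood apart in these. Genes above 0.5 FPKM numbered 15599 to 15673 in the controls and 16472 to 16736 at 12 h. Neuronal, astrocytic and myelin markers were abundant in all 6 libraries: Snap25, a synaptic membrane protein, had 244, 267 and 212 FPKM in the controls and 290.3, 292 and 256 FPKM at 12 h, and Mbp, the myelin basic protein, at least 331 FPKM in each. Markers of some regions varied strongly within groups. The summed level of 16 choroid plexus and ependyma genes ranged from 433 to 680 FPKM in the controls and from 306 to 728 FPKM at 12 h. Nearly all of it was Ttr alone, with 420, 659 and 494 FPKM in the controls and 708, 296 and 535 FPKM at 12 h. The sum of 20 striatal genes ranged from 402 to 796 FPKM in the controls and from 416 to 769 FPKM at 12 h. Genes of thalamic, hypothalamic and hindbrain neurons summed to 31.9, 39.4 and 128 FPKM in the controls, replicate 4 being the highest, and to 26.3, 60.5 and 58.8 FPKM at 12 h. Calb2, the most abundant of them, had 10.7, 19.6 and 43.6 FPKM in the controls and 5.11, 22.6 and 25.7 FPKM at 12 h. In bulk tissue, fewer cells of a type and less RNA per cell cannot be told apart. Whether libraries stem from separate animals is not stated, so p-values reflect the spread among libraries, which may be technical.

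At 12 h, a large part of the transcriptome differed in level from control, and the largest changes were rises of heat shock, immediate early and cytokine genes. With limma and a Benjamini-Hochberg adjusted p (false discovery rate, FDR) under 0.05, 7278 genes changed, or 44.3% of those tested. Of these, 3884 (23.7%) were higher and 3394 (20.7%) lower, so 53.4% of the changes were upward. That split depended on scaling: 38.4% of changes were upward (2985 higher, 4786 lower) after rescaling to an equal total per library, which moved the median of all genes by -0.11 in log2, and 42.3% (3238 higher, 4408 lower) after quantile normalization. In the deposited values the median difference over all tested genes was -0.005. When all 12 libraries shared 1 estimate of spread, 3756 genes changed (2321 higher, 1435 lower), 3742 of them among the 7278. Large changes were mainly upward. Genes that rose at least 2-fold numbered 899 (5.48% of those tested) and genes that fell at least 2-fold 154 (0.938%), and at 4-fold the numbers were 179 and 7. All folds and differences here are on the log2(FPKM + 1) scale, which understates the change of genes with low values.

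**Figure D1:**
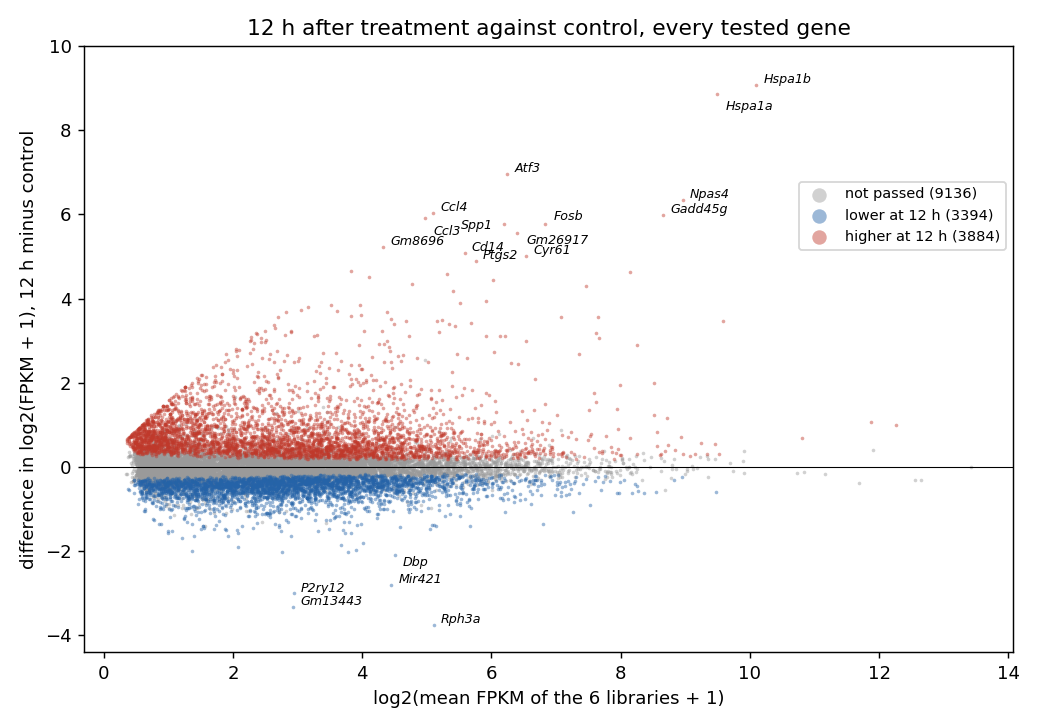
Difference in log2(FPKM + 1) between 12 h and control (vertical axis) against the log2 of the mean FPKM of the 6 libraries plus 1 (horizontal axis). Each point is a tested gene, coloured by whether it was higher (3884), lower (3394) or did not pass FDR 0.05. Hspa1b and Hspa1a sit at the top at 9.08 and 8.87, and the lowest point is Rph3a at -3.75.

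The genes that rose at least 2-fold took up a large part of the nuclear transcriptome by 12 h. They held 2.19% to 2.63% of all nuclear FPKM in the controls and 10.73% to 11.18% at 12 h, while the genes that fell at least 2-fold went from 0.96% to 1.14% down to 0.34% to 0.37%. Hspa1a and Hspa1b alone held 0.002% to 0.003% in the controls and 1.36% to 1.45% at 12 h. Because these genes were chosen by this comparison, the shares describe their size and test nothing. Of the tested genes, 619 were above 0.5 FPKM in every 12 h library and in no control, and 577 of these rose. Another 174 were above 0.5 FPKM only in the controls, and 132 of these fell. At the edge of the filter, the third highest of the 6 values was between 0.5 and 0.55 FPKM for 351 tested genes and between 0.45 and 0.5 FPKM for 374 genes left out. Among the gene lists below, the members above 0.5 FPKM in 1 group alone were 10 of 24 reactive astrocyte genes, 10 of 17 chemokines, 10 of 16 interleukins, 5 of 24 vessel permeability genes, 5 of 17 MHC and complement genes, 4 of 30 cytokine receptors, 4 of 18 NF-kB genes, 4 of 17 activated microglia genes and 3 or fewer in any other list. Such members had to differ to be tested, so the counts of these lists are descriptions. The same holds for any named gene above 0.5 FPKM at 12 h and in no control, whose p-value is a description too. Atf3, Emp1, Bcl3, Angpt2, Icam1 and Thbs1 are examples. Counts of the lists below stand beside the 23.7% higher and 20.7% lower of all tested genes.

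Heat shock genes had the largest rises of all. Hspa1b, which encodes an inducible HSP70 chaperone that refolds damaged proteins, had 2.23, 3.56 and 3.51 FPKM in control replicates 1, 2 and 4 and 2307, 2137 and 2117 FPKM in 12 h replicates 1, 2 and the unnumbered library, the order kept throughout. Its paralog Hspa1a had 1.32, 2.35 and 2.72 FPKM and 1502, 1422 and 1378 FPKM. Every treated library lay far above every control, with log2 differences of 9.08 ± 0.14 and 8.87 ± 0.17 (SE, n = 3 per group, adjusted p = 2.4e-07 and 6.3e-07). Hspa1a (ENSMUSG00000091971, chr17:34969190-34972156) and Hspa1b (ENSMUSG00000090877, chr17:34956436-34959238, both GRCm38, minus strand) are near-identical and may share reads. Their neighbour Hspa1l, a testis HSP70 gene that starts 547 bases from Hspa1a on the other strand, did not pass (-0.34, adjusted p = 0.053).

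The stretches before these genes hold the core letters of the heat shock element, shown here because the largest rises of the comparison lie next to them. Below are the 150 bases before the RefSeq start of Hspa1a (chr17:34972157-34972306, minus strand), Hspa1b (chr17:34959239-34959388, minus strand) and Hspb1 (chr5:135887769-135887918, plus strand), read 5′ to 3′ from RefSeq on GRCm38.p6. Capitals mark matches to the core GAANNTTC, which reads the same on both strands.
Hspa1a: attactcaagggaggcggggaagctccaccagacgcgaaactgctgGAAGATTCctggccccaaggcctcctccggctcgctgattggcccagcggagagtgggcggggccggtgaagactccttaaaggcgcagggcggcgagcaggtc
Hspa1b: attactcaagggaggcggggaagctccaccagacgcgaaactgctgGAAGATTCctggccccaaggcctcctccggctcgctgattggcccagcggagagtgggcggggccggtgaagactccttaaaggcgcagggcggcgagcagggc
Hspb1: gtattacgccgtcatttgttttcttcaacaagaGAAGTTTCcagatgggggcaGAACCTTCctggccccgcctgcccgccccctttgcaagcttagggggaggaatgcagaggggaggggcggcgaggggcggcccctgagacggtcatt
The Hspa1a and Hspa1b stretches differ at 1 of 150 bases. Each has its match at position -104, counted from the start, and Hspb1 has matches at -117 and -97. The core is common, however. It lay in 7.86% of all 32851 RefSeq windows of 250 bases before and 50 after a start, in 5.65% of the 14205 windows of tested genes, in 6.51% of the 707 windows of genes that rose at least 2-fold and in 7.05% of the 156 windows of genes that rose at least 4-fold. A match is a string of letters and no evidence of binding.

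Chaperones that work with HSP70 rose beside it. Of 35 tested genes for cytosolic chaperones and co-chaperones, 26 rose and 1 fell, with a median difference of 0.60. With all 12 libraries in the fit, 20 rose and none fell. Hspb1, a small heat shock protein that holds unfolded proteins, had 3.75, 5 and 5.38 FPKM in the controls and 121, 102 and 146 FPKM at 12 h. Bag3, which hands HSP70 clients to autophagy, had 2.86, 3.1 and 3.71 FPKM and 48.5, 42.5 and 46.9 FPKM. Dnajb1, an HSP40 that delivers clients to HSP70, had 15.6, 21.6 and 24.2 FPKM and 267, 226 and 249 FPKM. In all of these the 3 treated libraries were far above the controls, with log2 differences of 4.44 ± 0.16, 3.48 ± 0.09 and 3.55 ± 0.15 (adjusted p = 1.5e-05, 4.8e-06 and 2.6e-05). Hsph1, an HSP110 that recharges HSP70, rose by 3.07 ± 0.10. Smaller rises in log2 were those of Hspa8, the constitutive HSC70, by 1.23 ± 0.12, Hsp90aa1, the inducible HSP90, by 1.16 ± 0.10 and the mitochondrial chaperonin Hspd1 by 1.35 ± 0.09. Hspa12a, a distant HSP70 relative of neurons, was the member that fell (-0.46 ± 0.07).

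The chaperones of the endoplasmic reticulum moved little by comparison. Of 18 tested genes of the unfolded protein response in that organelle, 7 rose and 1 fell, and the median of 0.08 became -0.05 after rescaling to an equal total, with 4 higher and 3 lower. Fitted with all 12 libraries, 2 rose. Hspa5, the main HSP70 of the endoplasmic reticulum, had 52.4, 68.1 and 72.1 FPKM in the controls and 99.5, 96.9 and 93.3 FPKM at 12 h (0.59 ± 0.12, adjusted p = 0.0071). Pdia3, a disulfide isomerase, rose by 0.33 ± 0.05, and Sel1l, part of the machinery that removes misfolded proteins, fell (-0.50 ± 0.12). Calr, the most abundant member, was at 117, 122 and 124 FPKM and 119, 109.5 and 114 FPKM, and its groups overlapped. Genes of the proteasome and the ubiquitin system had a median of 0.13 that was -0.007 after rescaling to an equal total, with 3 of 22 higher and 2 lower.

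Genes of the integrated stress response, in which the factor ATF4 raises amino acid supply and repair when translation is throttled, were mostly higher. Of 18 tested members 15 rose and none fell, with a median of 0.72 and a largest difference of 2.01. After rescaling to an equal total 12 rose, and 10 with all 12 libraries in the fit. Atf3, a stress-induced member of the family of ATF4, is counted with the AP-1 genes below and not among these 18. It had 0.134, 0.184 and 0.292 FPKM in the controls and 154, 171 and 124 FPKM at 12 h (6.96 ± 0.12, adjusted p = 5.6e-07). It passed the filter through the 12 h libraries alone and had to differ. Atf4 itself had 48.7, 44.7 and 49.7 FPKM and 78.3, 97.1 and 88.6 FPKM (0.87 ± 0.09). Ppp1r15a, the phosphatase subunit that ends the response, rose by 1.90 ± 0.08, the pseudokinase Trib3 by 0.81 ± 0.15 and Cebpb, a transcription factor, by 2.01 ± 0.10. Among 19 tested p53 and growth arrest genes, 12 rose and 1 fell. Gadd45g, which acts in stress signalling and DNA repair, had 9.31, 10.8 and 14.3 FPKM and 892, 893 and 598 FPKM (5.99 ± 0.20), and Cdkn1a, the p21 brake on cell division, 2.88, 3.24 and 8.6 FPKM and 53.8, 44.3 and 40.5 FPKM (3.12 ± 0.33). Sesn1, a p53 target that restrains growth signalling, was the member that fell (-0.76 ± 0.17).

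Responses to oxidative stress differed between genes. Hmox1, heme oxygenase 1, which breaks down heme, had 2.41, 2.14 and 2.91 FPKM in the controls and 43.2, 31.7 and 41.9 FPKM at 12 h, without overlap (3.51 ± 0.14, adjusted p = 2.2e-05). Srxn1, which repairs oxidised peroxiredoxins, had 30.1, 33.2 and 34.4 FPKM and 86.9, 100.34 and 109 FPKM (1.57 ± 0.10), and Txnrd1, thioredoxin reductase, rose by 0.87 ± 0.08. Of the 23 tested NRF2 and oxidative stress genes, 8 rose and 4 fell, beside 23.7% and 20.7% of all tested genes, and their median of 0.12 turned to -0.006 after rescaling to an equal total. Fitted with all 12 libraries, 7 rose and none fell. Nqo1, a quinone reductase often used to read NRF2 activity, had 1.93, 2.33 and 2.87 FPKM and 1.88, 1.64 and 1.62 FPKM and did not pass (-0.31, adjusted p = 0.075). The metallothioneins Mt1 and Mt2, which bind zinc and scavenge radicals, rose by 2.01 ± 0.18 and 1.84 ± 0.20.

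The pathway that turns 5-ALA into heme changed in both directions. Alad, which joins 2 molecules of 5-ALA, had 11.1, 9.99 and 15.5 FPKM in the controls and 23.2, 22 and 21.5 FPKM at 12 h (0.84 ± 0.14, adjusted p = 0.004). Of the enzymes that follow it, Urod had 14.9, 15.2 and 14.7 FPKM and 9.52, 9.16 and 9.96 FPKM (-0.60 ± 0.06, adjusted p = 0.00054). All 3 treated libraries were below all controls. Uros, which acts just before Urod, fell (-0.38 ± 0.10, adjusted p = 0.022) but did not pass without control replicate 2 (adjusted p = 0.071), 12 h replicate 2 (adjusted p = 0.0701) or the unnumbered library (adjusted p = 0.0656). Cpox and Ppox, the next steps, did not pass (-0.13 and -0.02). Fech, ferrochelatase, which puts iron into protoporphyrin IX, had 21.1, 21.6 and 19.3 FPKM and 16.5, 15.7 and 17.4 FPKM (-0.31 ± 0.07, adjusted p = 0.012), and without control replicate 1 the difference of -0.29 did not pass (adjusted p = 0.0503). Alas1, which makes 5-ALA in the cell, had 10.1, 9.81 and 10.4 FPKM and 10.2, 9.12 and 9.22 FPKM and overlapped. Ftl1, the ferritin light chain that stores iron, rose by 1.06 ± 0.09, and the iron uptake receptor Tfrc by 0.57 ± 0.10. Of 20 tested genes for heme synthesis and iron handling, 8 rose and 6 fell, beside 23.7% and 20.7% of all tested genes. Fitted with all 12 libraries, 3 rose and 1 fell, and Uros, Urod, Fech and Ftl1 were among those that no longer passed.

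Immediate early genes were far above control at 12 h. Fos, which pairs with JUN proteins to form AP-1, had 10.3, 23.1 and 34.7 FPKM in the controls and 699, 553 and 376 FPKM at 12 h (4.63 ± 0.42, adjusted p = 0.00033). Fosb, its relative, had 1.57, 2.92 and 5.56 FPKM and 242, 228 and 197 FPKM (5.78 ± 0.31), and Junb, an AP-1 partner, 28, 53.2 and 48.7 FPKM and 365, 272 and 209 FPKM (2.69 ± 0.28). The lowest treated library was at least 3 times the highest control for each. Of 15 tested AP-1 and MAF genes, 12 rose and 1 fell, with a median of 1.90. The member that fell was Maf (-0.47 ± 0.10), a factor of microglia and interneurons. Of 23 EGR, NR4A, KLF and IER genes, 19 rose and 1 fell (median 1.83). Nr4a1, an orphan nuclear receptor, rose by 3.19 ± 0.27, Egr4, a zinc finger factor, by 3.55 ± 0.26, and Srf, the factor that binds CArG boxes in such genes, by 1.29 ± 0.06. Zfp36, which shortens the life of cytokine messages, had 0.666, 1.08 and 1.25 FPKM and 19.8, 12.5 and 17.7 FPKM (3.13 ± 0.18). The feedback inhibitors of MAP kinases rose in 13 of 15 tested members, with none lower: Dusp5, a nuclear ERK phosphatase, by 3.35 ± 0.29, Dusp14 by 2.44 ± 0.10 and Spry2, which blunts growth factor signalling, by 1.84 ± 0.08.

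Promoter stretches of 3 of the genes that rose hold matches to letter patterns written here for AP-1 and SRF. They are the 150 bases before the RefSeq start (GRCm38.p6) of Emp1, a membrane protein of reactive astrocytes (chr6:135362781-135362930, plus strand), Zfp36 (chr7:28379229-28379378, minus strand) and Dusp5 (chr19:53528995-53529144, plus strand). Capitals mark AP-1 cores (TGANTCA, either strand) in Emp1 and CArG boxes in the other two, in Dusp5 a pair that abut.
Emp1: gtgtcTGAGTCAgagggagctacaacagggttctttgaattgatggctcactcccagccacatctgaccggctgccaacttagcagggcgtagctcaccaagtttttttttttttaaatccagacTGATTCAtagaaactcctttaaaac
Zfp36: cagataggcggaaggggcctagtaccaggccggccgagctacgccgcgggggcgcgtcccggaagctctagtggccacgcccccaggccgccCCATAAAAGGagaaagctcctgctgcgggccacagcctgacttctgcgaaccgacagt
Dusp5: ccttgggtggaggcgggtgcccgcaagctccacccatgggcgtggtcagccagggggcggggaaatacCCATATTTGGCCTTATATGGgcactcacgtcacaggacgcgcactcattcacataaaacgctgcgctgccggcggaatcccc
The matches start at -145 and -25 in Emp1, at -58 in Zfp36 and at -82 and -72 in Dusp5. The middle letter of the AP-1 core was left free, a loose pattern. It is G in the Emp1 match at -145 and T in that at -25, and the AP-1 shares below count any middle letter. Emp1 itself had 0.146, 0.0764 and 0.193 FPKM in the controls and 13.3, 7.64 and 10.5 FPKM at 12 h (3.31 ± 0.18). Over windows of 300 bases, the AP-1 core lay in 7.81% of all, 5.08% of those of tested genes, 10.75% of those of genes up at least 2-fold, 14.74% of those up at least 4-fold and 1.8% of the 111 windows of genes down at least 2-fold. The CArG box lay in 1.63%, 1.37%, 3.25%, 5.77% and 1.8%, and the cyclic AMP element TGACGTCA in 1.79%, 2.98%, 3.82%, 5.13% and 1.8%. Also looked up were the NF-kB motif GGGANTTCC (1.68%, 2.15%, 2.69%, 2.56% and 0.9%) and the EGR motif GCGTGGGCG (0.61%, 1.16%, 1.41%, 1.28% and 0.9%). The antioxidant element TGACNNNGC lay in 12.39%, 14.09%, 14.14%, 18.59% and 9.91%, and the E-box CACGTG in 7.15%, 9.6%, 9.05%, 8.33% and 6.31%. A gene can give several windows, Egr2 giving 4 of the 9 with a CArG box among the genes up 4-fold, and these shares are counts of letters with no test.

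Activity-dependent genes of neurons made up another part of the rise. Of 23 tested, 22 were higher and none lower, with a median of 2.46. Npas4, a transcription factor found in stimulated neurons, had 8.43, 18.6 and 8.08 FPKM in the controls and 1206, 959.8 and 777 FPKM at 12 h (6.34 ± 0.31, adjusted p = 3.9e-05). Arc, which removes AMPA receptors from synapses, had 74.4, 141 and 189 FPKM and 1308, 1365 and 1535 FPKM (3.47 ± 0.31). Nptx2, a secreted organiser of excitatory synapses, had 17.9, 13.7 and 17.3 FPKM and 307, 350.0 and 352 FPKM (4.29 ± 0.11). The groups lay well apart for all 3. Inhba, an activin subunit, spread more widely, with 1.44, 1.48 and 1.09 FPKM and 24.3, 51.2 and 77.5 FPKM (4.33 ± 0.37). Bdnf, the neurotrophin, rose by 3.39 ± 0.16, Homer1, a scaffold of the postsynaptic density, by 1.87 ± 0.12, and Ptgs2, the inducible cyclooxygenase, by 4.90 ± 0.23.

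Among microRNA genes, the neighbours Mir212 and Mir132 rose. Only reads over these gene loci were counted, so the levels of the mature microRNAs were not measured. Mir132 had 2.63, 9.44 and 7.8 FPKM in the controls and 61.4, 50.7 and 80.9 FPKM at 12 h, and Mir212 had 3.17, 6.85 and 4.4 FPKM and 63.5, 38.8 and 90.4 FPKM. The 3 treated libraries were above the controls for both, by 3.21 ± 0.39 and 3.46 ± 0.33 (adjusted p = 0.001 and 0.00041). Their 3p arms, from chr11:75173723-75173744 and chr11:75173443-75173464 (plus strand), are shown because they share a seed, AACAGUC, in capitals at bases 2 to 8 of the RefSeq sequences.
miR-132-3p: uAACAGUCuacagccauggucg
miR-212-3p: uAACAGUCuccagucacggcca
Mir421, on the X chromosome, went the other way, with 32.7, 40.3 and 37.6 FPKM in the controls and 3.5, 3.26 and 7.44 FPKM at 12 h (-2.79 ± 0.25, adjusted p = 0.00033). The Mir421 locus is 76 bases long, and its values rest on 147 recovered reads in the 3 controls together and 17 in the 3 treated libraries. Its 5p arm (chrX:103572966-103572986, minus strand) has the seed UCAUUAA.
miR-421-5p: cUCAUUAAauguuuguugaau

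Some rises came from transcripts that lie beside a strongly raised gene. Gm8696, 1724 bases downstream of Hspa1b on the same strand, was listed at 0 in every control and at 50.4, 25.7 and 37.8 FPKM at 12 h. Next along that strand, 1110038B12Rik, 3965 bases beyond Hspa1b, had 4.82, 5.07 and 5.08 FPKM and 43, 23.7 and 34.2 FPKM (2.49 ± 0.19). Gm17501, a noncoding RNA that starts 331 bases from Cyr61 on the other strand, rose by 2.26 ± 0.18. Strandedness is not given in the sources used here, so reads of such pairs cannot be told apart, and whether the transcripts downstream of Hspa1b are separate was not tested. Within 30 kb of the 15 largest rises, 8 of 15 tested upstream neighbours rose and 2 fell, and 3 of 9 downstream neighbours rose and 2 fell. Over all tested genes 23.7% rose and 20.7% fell. Among the neighbours that rose, Hspa1a, Hspa1b, Gm8696, Ccl3 and Ccl4 are themselves among the 15 largest rises and so had to rise. The neighbour counts are therefore descriptions.

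**Figure D2:**
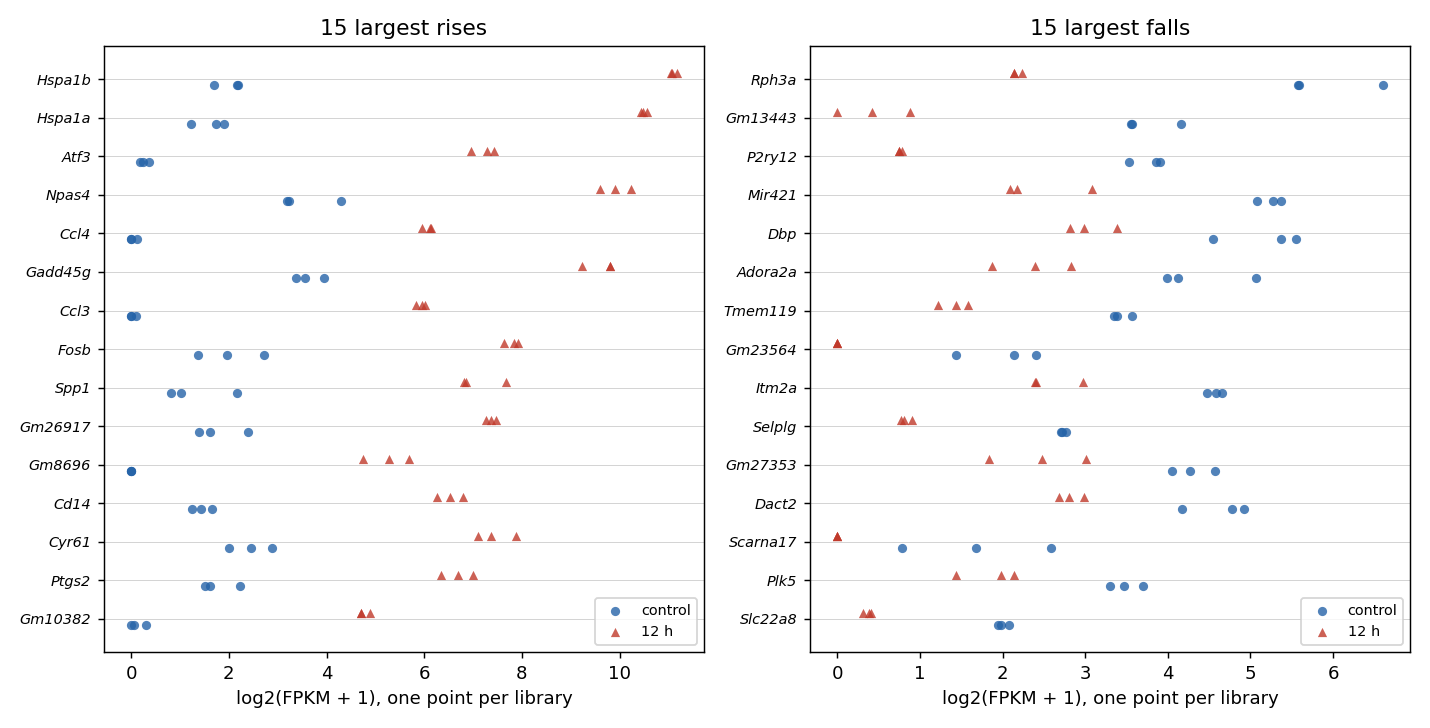
The 15 largest rises (left) and 15 largest falls (right) among genes that average 1 FPKM or more and whose groups do not overlap, drawn as log2(FPKM + 1) on the horizontal axis with circles for the 3 control libraries and triangles for the 3 libraries at 12 h. Hspa1b at 2117 to 2307 FPKM and Hspa1a at 1378 to 1502 FPKM are farthest right. Rph3a drops from 46.7 FPKM or more to 3.71 FPKM or less.

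Chemokine genes rose from values at or near 0. The chemokines Ccl3 and Ccl4, which attract leukocytes and are made by microglia, had 0, 0 and 0.0747 FPKM and 0, 0.0858 and 0 FPKM in the controls, and 64, 56.3 and 61.2 FPKM and 61.3, 69.5 and 68.7 FPKM at 12 h. Log2 differences were 5.91 ± 0.08 and 6.04 ± 0.08 (adjusted p = 1.4e-07 and 1.4e-07), and the genes are close relatives that may share reads. Ccl2, which draws monocytes, had 0, 0.0498 and 0 FPKM and 7.3, 6.04 and 9.88 FPKM (3.08 ± 0.16). Ccl11, the eosinophil attractant, was listed at 0 in all controls and at 9.4, 11.3 and 15.8 FPKM at 12 h. Of 25 chemokine genes looked up, 17 were tested, 13 rose and 1 fell, but 10 passed the filter through the 12 h libraries alone and had to differ. Cxcl12, which holds cells in place in the vessel niche, was the member that fell, from 6.86, 6.65 and 4.34 FPKM to 2.32, 2.76 and 2.6 FPKM (-0.95 ± 0.16).

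Interleukins and related cytokines were mostly low but raised. Il6 was listed at 0 in every control and at 1.48, 2.32 and 2.59 FPKM at 12 h. Il1b had 0.0909, 0.0594 and 0.06 FPKM and 2.02, 1.4 and 2.8 FPKM (1.50 ± 0.17), and Tnf 0.0352, 0 and 0 FPKM and 1.99, 1.74 and 1.11 FPKM (1.35 ± 0.14). Il1rn, the natural antagonist of interleukin 1, was also listed at 0 in all controls and stood at 2.94, 6.17 and 10.5 FPKM at 12 h. Of 25 such genes 16 were tested, and 10 of those passed the filter through the 12 h libraries alone. Csf1, the growth factor of microglia, was measured in both groups and rose from 3.4, 2.61 and 3.27 FPKM to 15.1, 16 and 18.8 FPKM (2.11 ± 0.11). Il34, the other ligand of the same receptor, which neurons make, fell from 30.5, 32.5 and 24.3 FPKM to 13.6, 13.8 and 12.7 FPKM (-1.06 ± 0.11, adjusted p = 0.00056). Their receptor Csf1r fell too, from 18.6, 18.5 and 18.1 FPKM to 10.9, 10.4 and 10.7 FPKM (-0.73 ± 0.06).

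Receptors and signal carriers of these cytokines rose as well. Of 30 tested cytokine and pattern receptors, 21 rose and 4 fell. Cd14, which presents bacterial and damage signals to Toll-like receptors, had 1.36, 2.16 and 1.71 FPKM in the controls and 109.5, 76.2 and 90.8 FPKM at 12 h, without overlap (5.08 ± 0.16, adjusted p = 7.7e-06). Tnfrsf1a, the main TNF receptor, rose by 2.41 ± 0.08, Tnfrsf12a, the receptor of TWEAK, by 2.90 ± 0.13, and Osmr, the oncostatin M receptor, by 1.82 ± 0.13. Of 18 genes for NF-kB subunits and its feedback inhibitors, 16 rose and 2 fell (median 0.94). Bcl3, a nuclear NF-kB partner, had 0.21, 0.137 and 0.0693 FPKM and 4.56, 4.48 and 5.76 FPKM (2.38 ± 0.11), and Nfkb2 rose by 1.63 ± 0.09. Cyld, a deubiquitinase that shuts the pathway off, fell by 0.73 in log2 from 8.82, 11.1 and 10 FPKM to 6.08, 5.48 and 5.32 FPKM.

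Of the JAK-STAT genes, Stat3 and its feedback inhibitor rose. Socs3, the STAT3 feedback inhibitor, had 1.12, 1.08 and 0.831 FPKM in the controls and 33.4, 20.7 and 30.8 FPKM at 12 h (3.84 ± 0.17, adjusted p = 2.8e-05). Stat3 had 4.98, 5 and 5.66 FPKM and 21.1, 16 and 17.5 FPKM (1.62 ± 0.11), and the kinase Pim1, a STAT target, rose by 2.53 ± 0.19. Socs5 fell (-0.52 ± 0.07). Of 19 JAK-STAT genes, 9 rose and 2 fell. Interferon-stimulated genes were higher in 16 of 20 tested members and lower in 1, with Ifitm3, which blocks virus entry, going from 9.97, 6.94 and 8.52 FPKM to 36.7, 27.7 and 39.2 FPKM (1.90 ± 0.16). Complement and MHC genes rose in 13 of 17 with none lower, C4b from 2.01, 1.92 and 2.86 FPKM to 12.1, 10 and 11.7 FPKM (1.92 ± 0.13) and the C1q chain C1qb by 1.20 ± 0.06. With all 12 libraries in the fit, 11 of the interferon-stimulated genes and 10 of the complement and MHC genes rose, and none fell.

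Microglial genes split by function. P2ry12, the ADP receptor that guides the processes of resting microglia, had 14, 13.5 and 10.5 FPKM in the controls and 0.679, 0.681 and 0.715 FPKM at 12 h, a fall in all 3 libraries to under 1 FPKM (-3.0 ± 0.11, adjusted p = 1.9e-05). Tmem119, a surface marker of resident microglia, had 9.18, 10.9 and 9.44 FPKM and 1.32, 1.71 and 1.98 FPKM (-2.02 ± 0.12), and Selplg, a selectin ligand, 5.6, 5.81 and 5.5 FPKM and 0.7, 0.87 and 0.75 FPKM (-1.90 ± 0.08). Of 21 tested homeostatic microglia genes, 13 fell and 4 rose, with a median of -0.43. Gpr34, a lysophospholipid receptor, fell by 1.63 in log2, and Cx3cr1, the fractalkine receptor, by 0.74. Not all moved that way: Fcrls, an Fc receptor-like protein of microglia, rose by 0.79 ± 0.11. The fit of all 12 libraries gave 12 lower and 1 higher. The summed level of the list was 162 to 176 FPKM in the controls and 130 to 141 FPKM at 12 h.

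Genes of activated microglia and phagocytes rose in 16 of 17 tested members, with none lower, and in 10 with all 12 libraries in the fit. Spp1, osteopontin, had 0.771, 1.03 and 3.51 FPKM in the controls and 112, 114 and 203 FPKM at 12 h (5.77 ± 0.38, adjusted p = 0.00011), the unnumbered library being the highest. Cd68, a lysosomal protein of phagocytes, had 4.23, 5.32 and 5.05 FPKM and 20, 18 and 25.9 FPKM (1.92 ± 0.14), and Tyrobp, the adaptor of TREM2, 13, 13.8 and 9 FPKM and 26.2, 24.9 and 30.1 FPKM (1.13 ± 0.16). Lgals3, galectin 3, rose by 2.31 ± 0.15 and the Fc receptor chain Fcer1g by 1.48 ± 0.08. Genes of neutrophils and monocytes stayed low, their 20 genes summing to 4.52 to 5.46 FPKM in the controls and 15.3 to 34.5 FPKM at 12 h, with 2 of them at 0 in all 6 libraries. Of 5 that were tested, 3 through the 12 h libraries alone, 4 rose and 1 fell. S100a9, a neutrophil calcium protein, had 0, 0 and 0.329 FPKM and 6.24, 3.2 and 14 FPKM (2.81 ± 0.42). Csf3r, the receptor of the neutrophil growth factor, fell from 1.74, 1.26 and 1.27 FPKM to 0.626, 0.601 and 1.11 FPKM (-0.45 ± 0.15, adjusted p = 0.042), a call that was lost on leaving out any library other than the unnumbered 12 h one (adjusted p = 0.0647 to 0.132). Cd3e, a chain of the T cell receptor complex, had 0, 0 and 0.028 FPKM and 10.3, 8.73 and 3.8 FPKM (3.0 ± 0.30). Trbc2, a constant chain of the T cell receptor and the most abundant of these markers, fell from 20.6, 19.7 and 13.4 FPKM to 12.4, 9.67 and 8.53 FPKM (-0.75 ± 0.19, adjusted p = 0.016), but did not pass without control replicate 1 or 2, 12 h replicate 2 or the unnumbered library (adjusted p = 0.0509 to 0.0563). Of 18 lymphocyte markers 3 reached the test, 4 were at 0 in all 6 libraries, and the remaining one tested, Cd4, had 1.19, 4.58 and 2.23 FPKM and 1.66, 1.4 and 2.06 FPKM with groups that overlapped. The part of entering blood cells in the microglial and cytokine results was not tested.

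**Figure D3:**
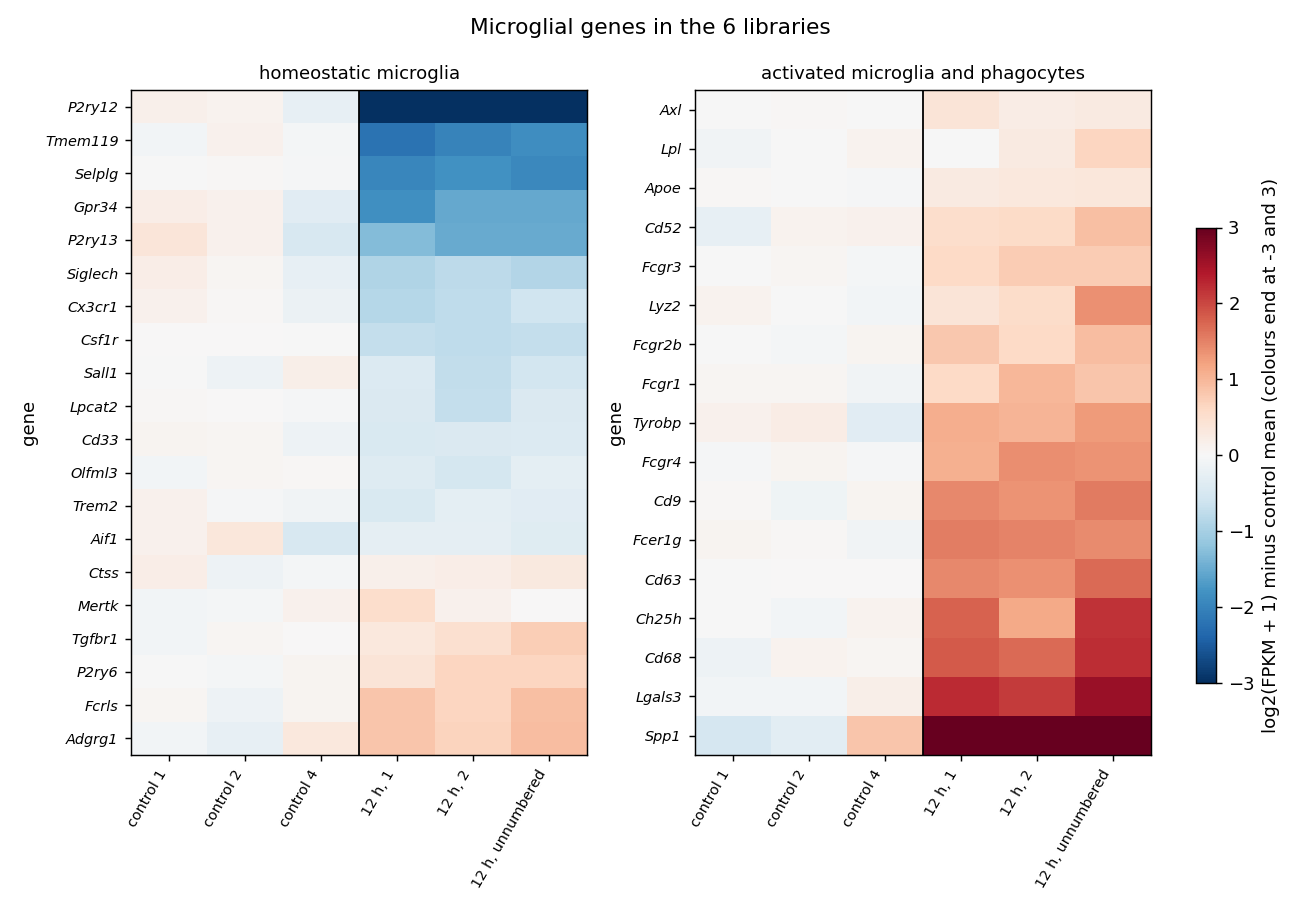
Log2(FPKM + 1) minus the control mean for tested homeostatic (left, 20 of 21 genes shown) and activated (right, 17 genes) microglial gene, 1 column per library, red for higher and blue for lower, with colours ending at -3 and 3. The 3 columns at 12 h show 13 homeostatic genes lower, led by P2ry12 at -3.0, and 16 activated genes higher, led by Spp1 at 5.77.

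Reactive astrocyte genes rose, and of the homeostatic ones 1 fell. Gfap, the intermediate filament of astrocytes, had 21.8, 12.7 and 26.4 FPKM in the controls and 167, 141 and 179 FPKM at 12 h (2.99 ± 0.24, adjusted p = 0.00022). Vim, another filament of reactive cells, had 4.25, 3.38 and 5.03 FPKM and 40.5, 30.2 and 38.3 FPKM (2.84 ± 0.15), and Serpina3n, a secreted protease inhibitor, 14.2, 8.73 and 19.4 FPKM and 71.9, 55.5 and 77.1 FPKM (2.25 ± 0.26). All 24 tested reactive astrocyte genes rose, though 10 of them passed the filter through the 12 h libraries alone. Cd14 and Hspb1, described above, are also on this list. Its summed level was 60.5 to 85.8 FPKM in the controls and 533 to 697 FPKM at 12 h. Homeostatic astrocyte genes rose in 10 of 20, but 4 rose after rescaling to an equal total and 5 with all 12 libraries in the fit. Sox9, an astrocyte transcription factor, rose by 1.15 ± 0.11 and Aldh1l1, a folate enzyme, by 0.60 ± 0.06. Slc1a2, the glutamate transporter, had 158, 162 and 140.4 FPKM and 178, 145 and 143 FPKM, Aqp4, the water channel, 11.3, 10.1 and 13.6 FPKM and 11.3, 12.2 and 13.6 FPKM, and both overlapped. Slc7a10, a serine transporter, fell (-0.48 ± 0.10).

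Myelin genes were higher at 12 h. Mobp, the myelin-associated oligodendrocyte basic protein, had 129, 119 and 159 FPKM in the controls and 388, 312 and 363 FPKM at 12 h (1.38 ± 0.13, adjusted p = 0.00036). Cldn11, the claudin of myelin, had 103, 91.7 and 108 FPKM and 287, 223 and 276 FPKM (1.36 ± 0.11). No treated library overlapped with a control for either. Of 21 tested oligodendrocyte genes, 16 rose and 1 fell, and 6 rose with all 12 libraries in the fit. Sox10, the lineage transcription factor, rose by 1.12 ± 0.08. The summed level was 1167 to 1379 FPKM in the controls and 2158 to 2607 FPKM at 12 h. Precursor genes were steadier, with 2 of 12 higher and none lower, beside 23.7% and 20.7% of all tested genes. Olig2, a factor of the whole lineage, was a member that rose (0.78 ± 0.08). The brain region is not given, so differences in dissection between groups cannot be told apart from the treatment here.

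Vascular genes went in both directions. Ly6a, a surface protein of brain endothelium, had 2.21, 1.36 and 2.61 FPKM in the controls and 35.6, 38 and 39.9 FPKM at 12 h (3.69 ± 0.15, adjusted p = 2.4e-05). Itm2a, a membrane protein enriched in brain vessels, fell from 23, 21.2 and 24.1 FPKM to 4.23, 4.3 and 6.88 FPKM (-1.98 ± 0.16), and Slco1a4, a transporter of the blood-brain barrier, from 5.25, 5.79 and 4.82 FPKM to 0.736, 1.62 and 1.08 FPKM (-1.57 ± 0.16). Abcb1a, the drug efflux pump P-glycoprotein, fell from 2.93, 4 and 4.24 FPKM to 1.33, 1.64 and 1.18 FPKM (-0.98 ± 0.14). Of 23 endothelial genes 12 rose and 7 fell, or 8 and 4 with all 12 libraries in the fit, the junction genes Cdh5 and Pecam1 rising by 1.97 ± 0.23 and 1.70 ± 0.10. Slc22a8, an organic anion transporter of the barrier and choroid plexus, fell by 1.64 in log2. The summed level of the endothelial genes, with Ly6a included, was 126 to 142 FPKM in the controls and 198 to 207 FPKM at 12 h.

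Genes of tight junctions and vessel permeability were higher in 16 of 24 tested members and lower in 1, or 11 and none with all 12 libraries in the fit. Angpt2, which loosens vessels, had 0.235, 0.154 and 0.496 FPKM in the controls and 9.8, 8.9 and 8.44 FPKM at 12 h (2.96 ± 0.12, adjusted p = 2.3e-05). It passed the filter through the 12 h libraries alone and had to differ. Cldn5, the main claudin of the barrier, had 14.1, 13.5 and 15.4 FPKM and 30, 26.7 and 26.2 FPKM (0.90 ± 0.08), Tjp1, its cytoplasmic anchor, rose by 0.53 ± 0.06, and Ocln, occludin, had 1.03, 1.42 and 1.33 FPKM and 1.31, 0.998 and 1.1 FPKM with groups that overlapped. Icam1, the leukocyte adhesion molecule, rose from 0.252, 0.247 and 0.144 FPKM to 4.56, 3.14 and 3.72 FPKM (1.98 ± 0.13). Sele, E-selectin, was listed at 0 in all controls and at 0.502, 1.19 and 1.49 FPKM at 12 h. Pericyte and smooth muscle genes were split, with 5 higher and 3 lower of 12. Acta2, the contractile actin, rose by 0.98 ± 0.13, while Rgs5, a pericyte marker, fell from 15.8, 17.7 and 16.3 FPKM to 8.44, 8.03 and 6.84 FPKM (-1.01 ± 0.09) and Vtn, vitronectin, by 1.09 in log2. The summed pericyte level was 50.1 to 53.5 FPKM in the controls and 40.9 to 41.9 FPKM at 12 h.

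**Figure D4:**
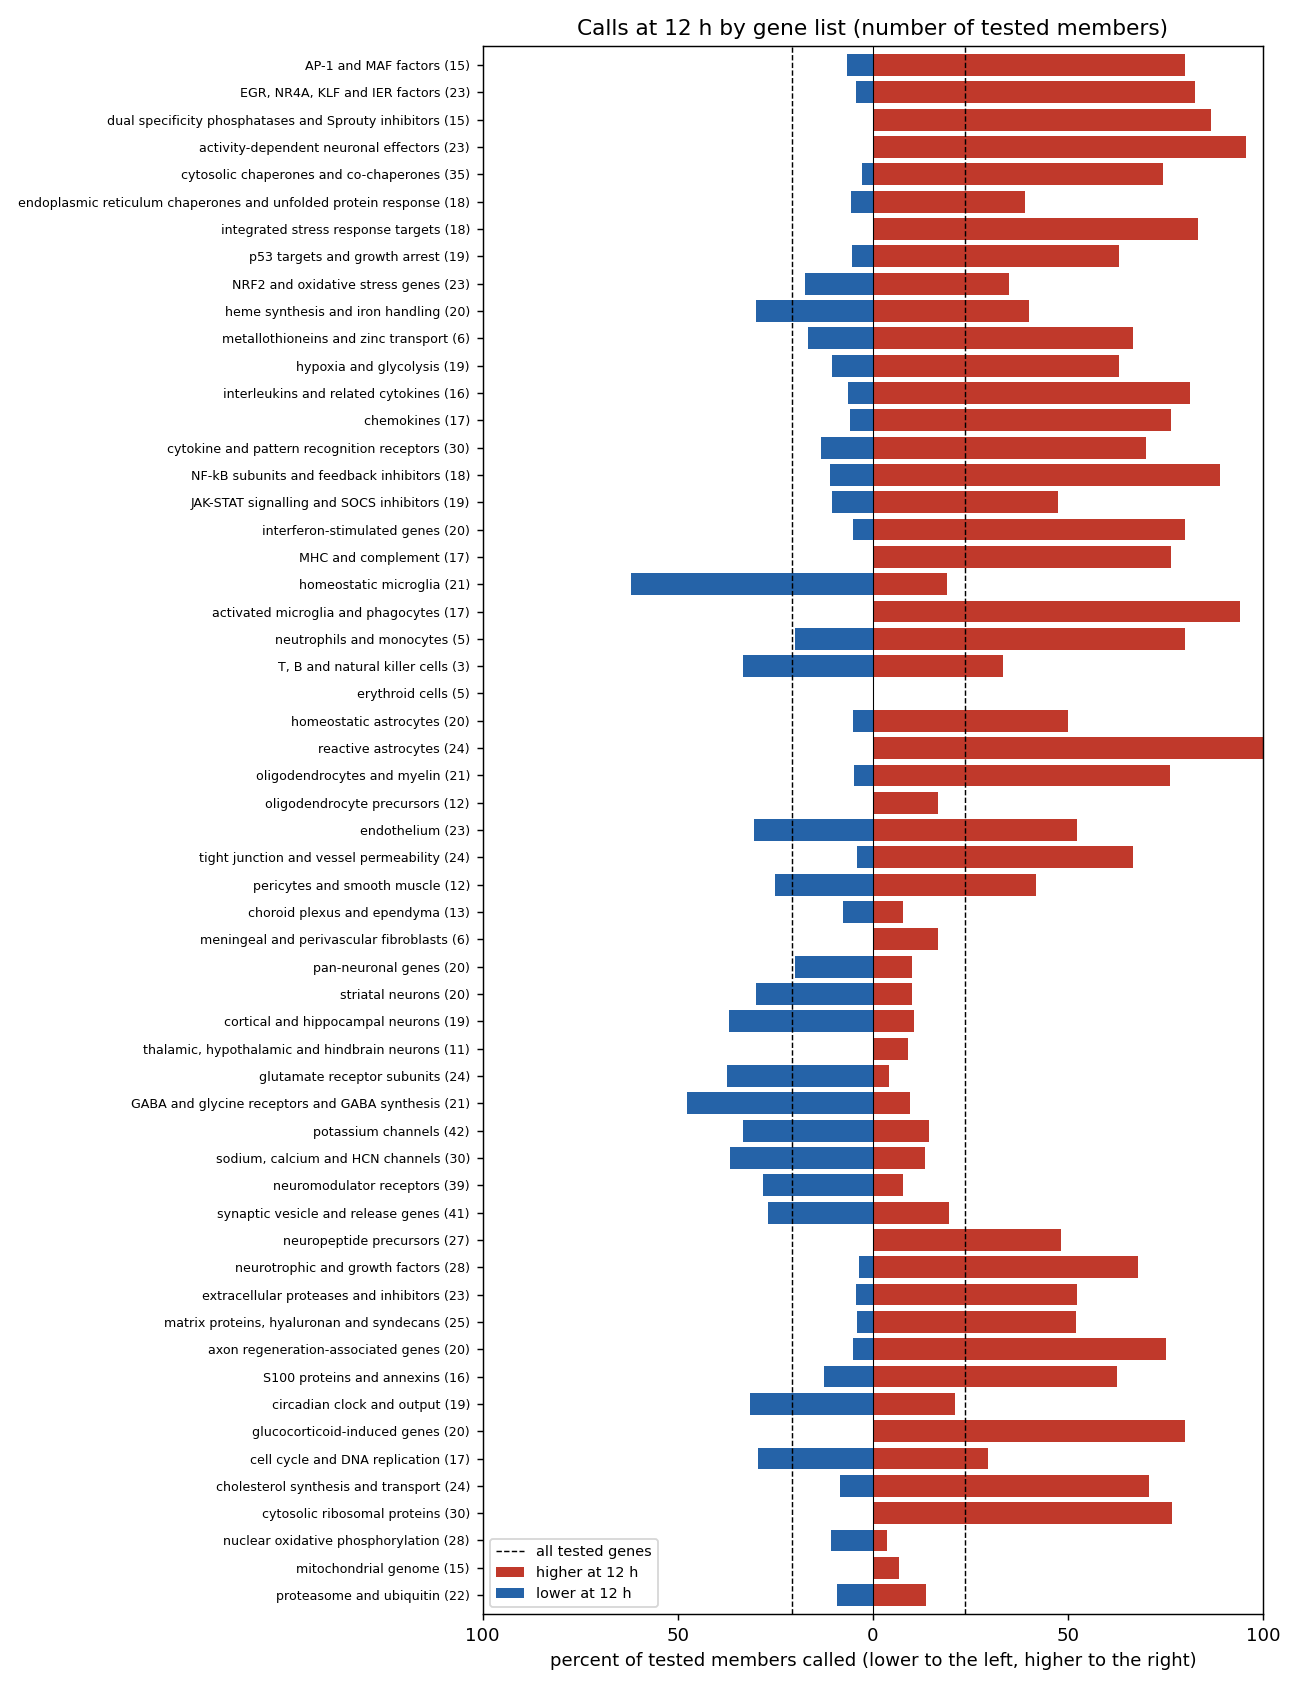
Percent of the tested members of each of 57 gene lists that were higher (right, red) or lower (left, blue) at 12 h at FDR 0.05, with the number tested in brackets and dashed lines at 23.7% and 20.7%, the shares over all tested genes. Lists whose members passed the filter mainly through the 12 h libraries, such as interleukins and chemokines, are biased upward.

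Few of the general neuronal markers passed the test. Of 20 tested pan-neuronal genes, 2 rose and 4 fell (median -0.10), beside 23.7% and 20.7% of all tested genes. However, 8 fell after rescaling to an equal total, 10 after quantile normalization and none with all 12 libraries in the fit. Their sum was 2553 to 2657 FPKM in the controls and 2378 to 2520 FPKM at 12 h. Map2 and Rbfox3 were among those that did not pass. Nefm and Nefl, neurofilament chains of axons, rose by 1.08 ± 0.21 and 0.79 ± 0.09, and Stmn2 and Tubb3, proteins of growing microtubules, fell by 0.61 and 0.62 in log2. Rph3a, which encodes the vesicle protein rabphilin, had the largest fall of all, from 96.4, 46.7 and 46.9 FPKM in the controls to 3.4, 3.42 and 3.71 FPKM at 12 h (-3.75 ± 0.27, adjusted p = 0.00013). Its 3 treated libraries were nearly equal and far below the lowest control. Replicate 2 of the 1.5 h group was also low, at 5.10 FPKM, while the other 1.5 h libraries had 29.4 and 34.2 FPKM and the 48 h libraries 29.5 to 48.9 FPKM. The pseudogene Gm13443 was low in the same libraries, with 16.9, 10.8 and 10.7 FPKM in the controls, 0.838, 0 and 0.339 FPKM at 12 h and 0.110 FPKM in 1.5 h replicate 2.

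Receptor genes for glutamate, GABA and glycine were more often lower than higher. Of 24 tested glutamate receptor genes, 9 fell and 1 rose (median -0.29). Grm2 and Grm5, metabotropic receptors, had 15.9, 17.2 and 14.9 FPKM and 16.7, 19.2 and 17.4 FPKM in the controls, and 7.78, 8.18 and 7.51 FPKM and 10.2, 9.21 and 9.67 FPKM at 12 h. Their groups did not overlap (-0.94 ± 0.08 and -0.81 ± 0.08, adjusted p = 0.00021 and 0.00036). Gria2, the AMPA receptor subunit that keeps calcium out, fell from 40.3, 40 and 37.3 FPKM to 26.6, 24.5 and 26.3 FPKM (-0.58 ± 0.06), and Grin1, the obligatory NMDA receptor subunit, had 49.6, 49.2 and 44.6 FPKM and 55.3, 47.4 and 39.8 FPKM with overlap. Of 21 genes for GABA and glycine receptors and GABA synthesis, 10 fell and 2 rose. Gabrb2, a subunit of the common GABA-A receptor, fell from 21.5, 25 and 18.8 FPKM to 9.52, 10.9 and 9.27 FPKM (-1.06 ± 0.11). With all 12 libraries in the fit, 5 of the glutamate receptor genes and 3 of the GABA and glycine genes fell and none rose.

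Channel genes were also more often lower. Of 30 tested sodium, calcium and HCN channel genes, 11 fell and 4 rose (median -0.18). Scn2b, a sodium channel beta subunit, had 70.8, 76 and 71.6 FPKM in the controls and 29, 27.3 and 24.2 FPKM at 12 h (-1.41 ± 0.08, adjusted p = 5.6e-05). Scn2a, the sodium channel of excitatory axons, had 25.9, 25.8 and 23.4 FPKM and 11.5, 10.6 and 8.94 FPKM (-1.20 ± 0.10), a fall in every library. Cacna1a, the P/Q-type calcium channel of synapses, rose from 19.7, 18 and 18 FPKM to 31.2, 26.5 and 26.1 FPKM (0.56 ± 0.09). Among 42 potassium channel genes, 14 fell and 6 rose, beside 20.7% and 23.7% of all tested genes. Kcnj3, a G protein-gated channel, was lower (-1.0 ± 0.10) and Kcnf1, a silent subunit of Kv2 channels, higher (1.05 ± 0.07). Of 39 neuromodulator receptors 11 fell and 3 rose. Htr1a, an inhibitory serotonin receptor, fell from 6.54, 4.66 and 4.26 FPKM to 0.771, 1.64 and 1.11 FPKM (-1.50 ± 0.19), and Htr1b rose by 1.41 ± 0.18. With all 12 libraries in the fit, 4 of the sodium, calcium and HCN channel genes fell and none rose, 7 of the potassium channel genes fell and 4 rose, and 6 of the neuromodulator receptors fell and 2 rose.

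**Figure D5:**
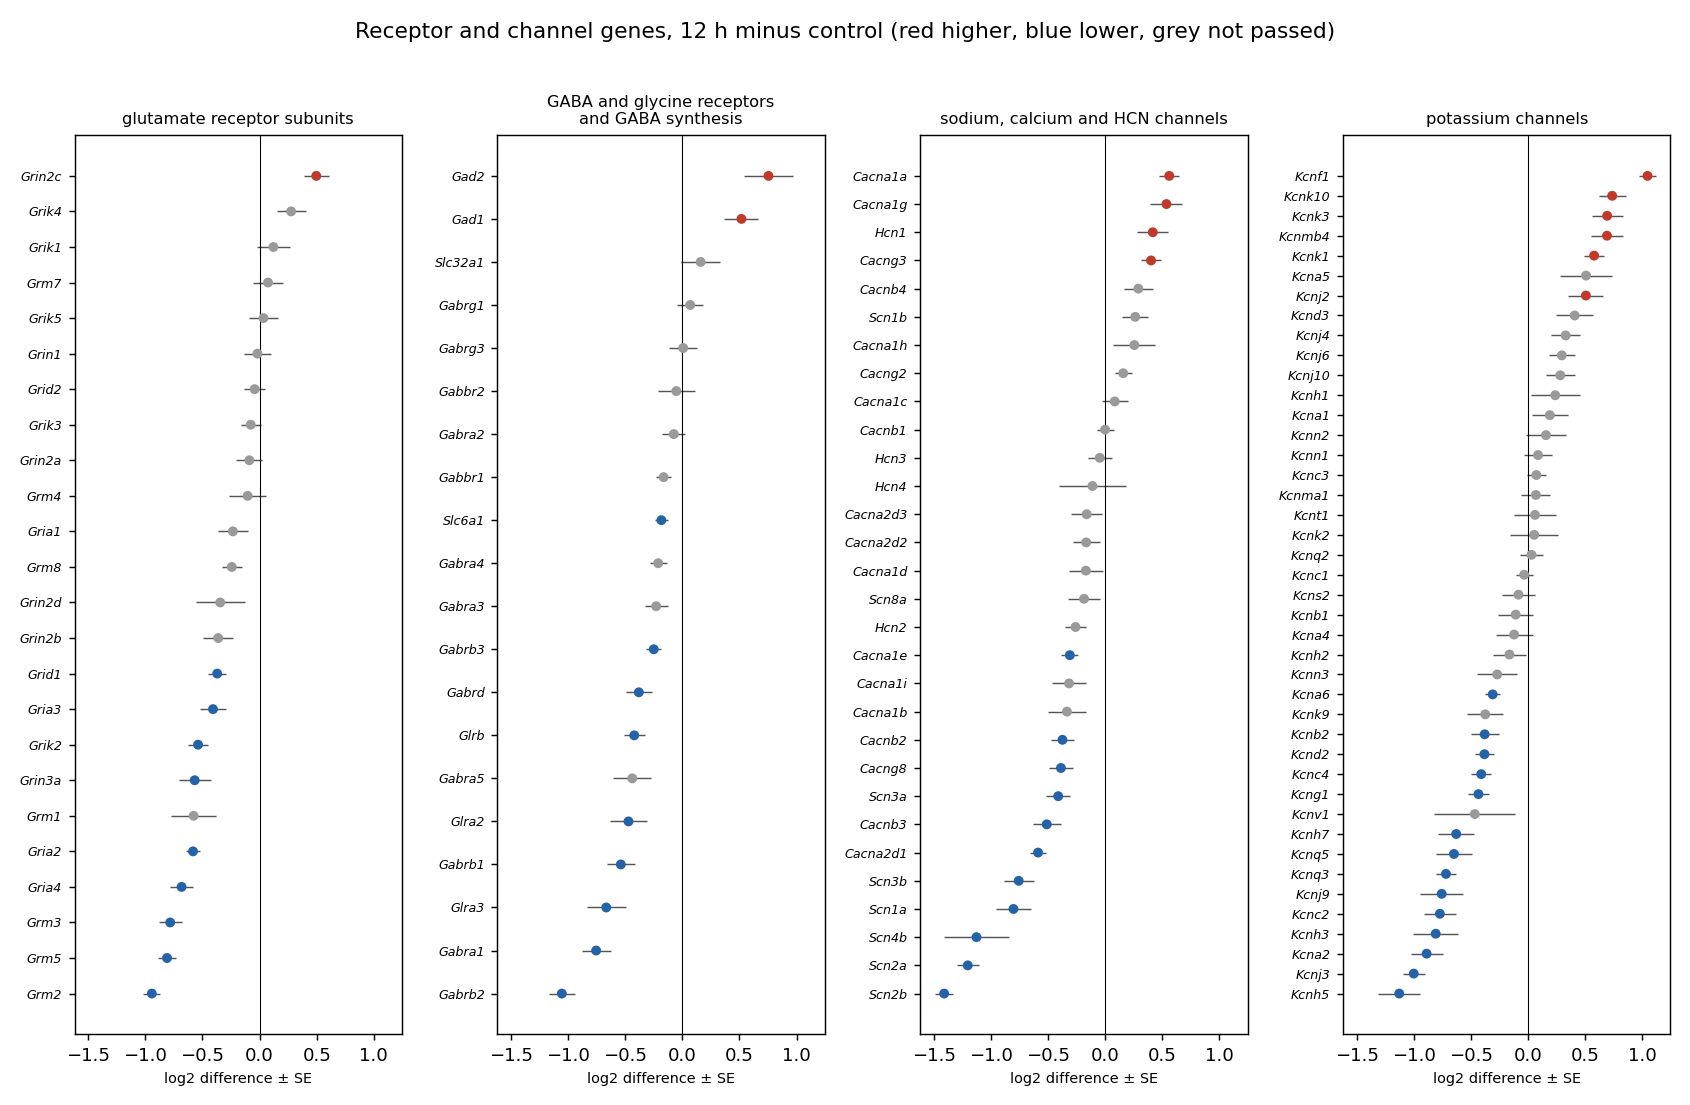
Log2 difference (12 h minus control, horizontal axis, bars are the SE of the limma fit) of tested glutamate receptor (24), GABA and glycine (20 of 21 shown), sodium, calcium and HCN channel (30) and potassium channel (42) gene. Blue points (lower) number 9, 9, 11 and 14 and red points (higher) 1, 2, 4 and 6.

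Striatal genes were unequal between and within groups. Adora2a, the adenosine receptor of striatopallidal neurons, had 14.9, 32.5 and 16.4 FPKM in the controls and 4.25, 2.67 and 6.07 FPKM at 12 h (-2.03 ± 0.33, adjusted p = 0.0033), and Drd2, the dopamine receptor of the same cells, 8.51, 19.1 and 13.7 FPKM and 3.37, 2.97 and 5.89 FPKM (-1.52 ± 0.31, adjusted p = 0.0073). Control replicate 2 was the highest for both, and it also had the highest summed striatal level of the controls, 796 FPKM. Drd1, the receptor of the other class of striatal neuron, had 5.83, 15.6 and 7.76 FPKM and 4.71, 3.09 and 10.9 FPKM and did not pass (-0.61, adjusted p = 0.31). Of 20 striatal genes 6 fell and 2 rose, beside 20.7% and 23.7% of all tested genes. Those that rose were the peptide precursors Pdyn (1.85 ± 0.31) and Tac1 (1.72 ± 0.26). The fit of all 12 libraries gave 2 lower and 2 higher. The part of the share of striatum in each sample was not tested. Of 19 cortical and hippocampal genes 7 fell and 2 rose, with Neurod6, a factor of pyramidal neurons, going from 39.2, 27.6 and 35.9 FPKM to 12.3, 13.9 and 9.76 FPKM (-1.44 ± 0.16) and Fezf2, a factor of deep-layer neurons, from 14.5, 10.9 and 11.7 FPKM to 26.9, 32.9 and 23 FPKM (1.09 ± 0.15), and 4 of these fell with all 12 libraries in the fit.

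Of 41 release genes of the synapse 11 were lower and 8 higher, shares near the 20.7% and 23.7% of all tested genes, and 4 and 3 with all 12 libraries in the fit. Syt3, a calcium sensor, fell from 23.2, 21 and 22.5 FPKM to 13.4, 13.6 and 12.6 FPKM (-0.71 ± 0.07), Syp, synaptophysin, by 0.41 in log2, and Rims4, an active zone protein, rose by 0.41 ± 0.07. Neuropeptide precursors were higher in 13 of 27 tested members and lower in none. Nts, neurotensin, had 2.41, 0.636 and 3.35 FPKM in the controls and 39.7, 64.3 and 123 FPKM at 12 h (4.58 ± 0.48, adjusted p = 0.00056). Scg2, a granin that is cleaved to secretoneurin, had 59.8, 60.8 and 96.9 FPKM and 432, 572 and 603 FPKM (2.89 ± 0.21), and Adcyap1, the PACAP precursor, 4.68, 4.4 and 7.31 FPKM and 36.4, 54 and 28.3 FPKM (2.63 ± 0.25). Groups were separate for all 3, with the widest spread at 12 h in Nts. Crh, the stress hormone of the hypothalamus, rose by 2.31 ± 0.11.

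Many genes for growth factors, matrix and proteases rose, and few fell. Cyr61, a matrix-bound growth regulator, had 3, 6.34 and 4.48 FPKM in the controls and 236, 164 and 136 FPKM at 12 h (5.01 ± 0.26, adjusted p = 4.9e-05). Thbs1, thrombospondin 1, had 0.114, 0.205 and 0.217 FPKM and 19.2, 15.1 and 12.7 FPKM (3.81 ± 0.14), and Adamts1, a protease of proteoglycans, 1.93, 2.01 and 2.47 FPKM and 34.2, 29.6 and 22 FPKM (3.22 ± 0.16). Of 28 growth factor genes 19 rose and 1 fell. Vegfa, the vessel growth factor, rose by 1.05 ± 0.09, Hbegf, an EGF receptor ligand, by 2.09 ± 0.13, and Ntf3, neurotrophin 3, fell by 0.80 in log2 from 1.55, 0.529 and 0.934 FPKM to 0.116, 0.145 and 0.11 FPKM. Proteases and inhibitors rose in 12 of 23 and fell in 1, among them Plaur, the urokinase receptor (2.98 ± 0.19), and Timp1, an inhibitor of metalloproteases (2.75 ± 0.23). Mmp3, stromelysin, was listed at 0 in the controls and at 2.07, 2.27 and 1.78 FPKM at 12 h. Matrix genes rose in 13 of 25 and fell in 1, with 11 to 12 higher under the other scalings and the fit of all 12 libraries, Col4a1, a collagen of vessel basement membrane, from 5.93, 5.47 and 7.18 FPKM to 33.4, 28.5 and 25.1 FPKM (2.06 ± 0.13), and Hapln1, a link protein of perineuronal nets, falling by 0.91 in log2.

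Hypoxia and glycolysis genes rose in 12 of 19 tested members and fell in 2, or 8 and 1 with all 12 libraries in the fit. Adm, adrenomedullin, a vasodilator, had 0.642, 1.19 and 1.41 FPKM in the controls and 8.95, 10.2 and 13.3 FPKM at 12 h (2.51 ± 0.18), Pfkfb3, which speeds glycolysis, 5.01, 5.73 and 5.88 FPKM and 18.7, 16.4 and 17.6 FPKM (1.51 ± 0.08), and Slc2a1, the glucose transporter of the barrier, rose by 1.05 ± 0.18. Genes of cholesterol synthesis and transport rose in 17 of 24 and fell in 2 (median 0.65). Msmo1, a late enzyme of the synthesis, had 10.3, 10.3 and 11.4 FPKM and 25.1, 25.5 and 24.1 FPKM (1.15 ± 0.07, adjusted p = 5.7e-05). Abcg1, which exports cholesterol from cells, fell from 15.3, 19.7 and 17.6 FPKM to 10.5, 10.9 and 11.2 FPKM (-0.64 ± 0.10). Ribosomal protein genes rose in 23 of 30 with none lower, by a median of 0.34, but in 13 after rescaling to an equal total, 12 after quantile normalization and 1 with all 12 libraries in the fit. Nuclear genes of oxidative phosphorylation had a median of -0.001, with 1 of 28 higher and 3 lower, but 7 were lower after rescaling to an equal total, 8 after quantile normalization and none with all 12 libraries in the fit. Sdhd and Sdhc, subunits of complex II, fell by 0.60 and 0.53 in log2.

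Clock and glucocorticoid genes are reported together because both follow the hour of day, which the labels do not give, so its part in these values was not tested. Dbp, an output factor of the circadian clock, had 40.4, 45.8 and 22.3 FPKM in the controls and 9.48, 6.93 and 6.06 FPKM at 12 h (-2.09 ± 0.27, adjusted p = 0.0013), without overlap. Nr1d2 and Nr1d1, repressors of the clock loop, fell from 23.4, 28.5 and 22.4 FPKM to 11.4, 12.4 and 8.94 FPKM (-1.12 ± 0.14) and from 35.9, 42.1 and 32.6 FPKM to 24.4, 20.1 and 25.6 FPKM (-0.63 ± 0.12). Arntl, which encodes the core activator BMAL1, had 3.19, 4.56 and 4.99 FPKM and 4.1, 4.02 and 3.73 FPKM and overlapped. Nfil3, the repressor that opposes Dbp, rose from 4.39, 3.38 and 8.36 FPKM to 68, 85.8 and 50.7 FPKM (3.48 ± 0.30). Of 19 clock genes, 4 rose and 6 fell, beside 23.7% and 20.7% of all tested genes. Glucocorticoid-induced genes were higher in 16 of 20 with none lower, Errfi1, a brake on EGF receptors, from 9.48, 9.7 and 14.3 FPKM to 77, 81.1 and 68.4 FPKM (2.67 ± 0.15) and Cebpd by 2.70 ± 0.13. Tsc22d3, the leucine zipper named for this response, had 17.1, 19.7 and 27.9 FPKM and 22.1, 24 and 19.8 FPKM and overlapped (0.05, adjusted p = 0.83).

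By chromosome, the shares of calls on the X lay outside the range of the autosomes. Of 541 tested X-linked genes, 13.3% were higher and 28.7% lower, while on the autosomes 20.9% to 29.3% were higher and 17.1% to 23.2% lower. The difference was not tested, and the sex of the animals is not used here. Gm26917, a long noncoding RNA gene, had 2.08, 1.62 and 4.28 FPKM in the controls and 177, 164 and 152 FPKM at 12 h (5.56 ± 0.24). It lies 12 bases from CT010467.1, a ribosomal RNA gene on the other strand, which was at 149.9, 188 and 193 FPKM and 117, 132 and 116 FPKM and fell (-0.53 ± 0.11). The mitochondrial ribosomal RNA mt-Rnr2 rose from 1930.4, 2617 and 2738 FPKM to 4404, 5576 and 5197 FPKM (1.07 ± 0.17), a rise that did not pass without the filter on low values or with all 12 libraries in the fit. Mitochondrial transcripts as a whole took 4.16% to 6.02% of reads in the controls and 4.66% to 5.29% at 12 h.

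The same genes were measured at the other times, where 1.5 h replicates 1 and 3 stand apart from other libraries and the controls are shared by all comparisons, so no test is given. Hspa1b had 151, 249 and 135 FPKM at 1.5 h and 1.89, 4.75 and 3.99 FPKM at 48 h. Fos had 46.7, 139 and 401 FPKM at 1.5 h and 46.5, 34.5 and 100.53 FPKM at 48 h. Ccl4 had 3.37, 0.557 and 18.4 FPKM and 7.85, 3.81 and 8.15 FPKM. Spp1 had 0.799, 0.706 and 0.867 FPKM and 1109, 220.1 and 431 FPKM, and Gfap 28.9, 8.86 and 29.3 FPKM and 632, 437 and 534 FPKM. P2ry12 had 15.1, 7.91 and 10.1 FPKM and 6.08, 10 and 7.47 FPKM. Mobp had 170.1, 121 and 114 FPKM and 231, 84.9 and 92 FPKM, 48 h replicate 1 being the highest of these.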

How the data were processed

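The authors deposited 1 table of FPKM values per gene for 12 mouse brain libraries. Bowtie 0.12.2 and the build mm8 are named in the submitters' processing notes, while the counting tool and annotation are not given in the sources used here, and 98.33% of 54495 shared gene IDs have the start and end of the GRCm38 annotation. Reads recovered from the FPKM steps gave 15746042 to 17103868 reads per library. Values were tested as log2(FPKM + 1) with limma 3.58.1 (trended, R 4.3.3) and Benjamini-Hochberg adjustment in the 3 control and 3 libraries at 12 h alone, since 2 libraries of the 1.5 h group stand apart. The residual degrees of freedom were 4.

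Genes named are the 15 largest rises and 15 largest falls among genes that passed FDR 0.05, averaged 1 FPKM or more and had groups without overlap. From each of 57 gene lists came up to 2 members that rose and 2 that fell, by smallest p past FDR 0.05, and the most abundant member. Lists can share members, so the same gene can count in several. Atf3, for example, is in the AP-1 and the axon regeneration lists, and Gadd45g in the activity-dependent and the p53 lists. Hmox1, Alas1, Alad, Fech, Cldn5, Ocln, Plvap, Aqp4, Gfap, Aif1, Fos and P2ry12 were added whatever their result, and further genes were picked once values had been seen. The comparison and the lists were chosen with earlier results of these data known. The third 12 h column carries number 4 and the third title number 3, so that library is called unnumbered. Alternatives were other pseudocounts, filters, scalings, a length correction, voom on recovered reads, all 12 libraries, a replicate block and leaving out each library. Some genes are not reported here, and 2 figures leave out 1 gene each.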

Additional observations from a re-analysis of the deposited data

How the results depend on the processing

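The count of 7278 changed genes was 7188 and 7264 with pseudocounts of 0.1 and 0.5, 6698 among genes above 1 FPKM and 6904 with no filter. It was 7215 without the mean-variance trend, 7349 with the length trend removed and 7556 with voom on recovered reads. The voom fit used the same scaling totals as the deposited values. Leaving out each library in turn gave 5413 to 6776 changed genes, 3079 to 3658 higher and 2334 to 3118 lower. With all 12 libraries in the fit, 3756 genes changed (2321 higher, 1435 lower). This fit shares 1 spread over all 4 groups, and the calls of Cacna1a, Cxcl12, Drd2, Fcrls, Gabrb2, Hspa12a, Maf, Ntf3, Pdia3, Rims4, Sdhc, Sdhd, Sel1l, Slc7a10, Socs5, Stmn2, Tjp1, Tubb3, Tyrobp and CT010467.1 were among those lost. A replicate block over the libraries numbered 1 and 2 gave 5158 changed genes (2946 higher, 2212 lower), from 4 libraries only. Deviations of same-numbered libraries correlated at 0.11 and -0.046, and those of the other pairs at -0.095 to 0.063. Too few libraries share a number to decide whether numbers pair them. Of 295 named genes with a call, 212 lost it under none of the 17 alternatives. The filter above 1 FPKM left 331 of the 340 named genes, and a gene not tested there was not counted as lost. The sign turned for Glul, a glutamine enzyme, under quantile normalization (0.30 against -0.001, adjusted p = 0.99) and for Cplx1, a release protein, under the same setting (0.00 against -0.277, adjusted p = 0.00636); the cause was not tested. With 3 libraries a group and the depth recovered here, a gene that did not pass is not shown to be unchanged.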

Other observations

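Genes that mark injured and regrowing axons were higher at 12 h in 15 of 20 tested members and lower in 1. With all 12 libraries in the fit, 10 rose and none fell. Tubb6, a tubulin of remodelling cells, had 1.25, 1.29 and 1.56 FPKM in the controls and 32.2, 22.5 and 29.7 FPKM at 12 h (3.61 ± 0.14, SE, n = 3 per group, limma adjusted p = 1.9e-05), and Vgf, a neurotrophin-induced secreted protein, 81.1, 78.8 and 101.2 FPKM and 274, 278 and 341 FPKM (1.76 ± 0.13, adjusted p = 0.00014). Both were without overlap. Basp1, a growth cone protein, had 268, 257 and 235 FPKM and 277, 288 and 251 FPKM and did not pass (adjusted p = 0.36). Of 16 S100 proteins and annexins, which bind calcium and membranes, 10 rose and 2 fell, or 6 and 1 with all 12 libraries in the fit. Anxa2, annexin A2, had 1.08, 1.43 and 1.36 FPKM and 15, 11.9 and 11.8 FPKM (2.60 ± 0.11), S100a11 rose by 2.53 ± 0.18, and Anxa6 fell from 35.5, 37.2 and 38.6 FPKM to 29.2, 26 and 27.3 FPKM (-0.42 ± 0.07).

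Of 17 cell cycle genes 5 were higher and 5 lower, near the 23.7% and 20.7% of all tested genes. The growth factor responsive Myc had 1.11, 1.11 and 1.6 FPKM in the controls and 7.17, 5.9 and 8.07 FPKM at 12 h (1.82 ± 0.14, limma adjusted p = 0.00016), and Ccnd1, the cyclin that opens the cycle, 3.75, 3.75 and 3.27 FPKM and 7.95, 8.1 and 8.26 FPKM (0.99 ± 0.08). Ccne2, a cyclin of the step into DNA synthesis, fell from 2.33, 2.2 and 1.62 FPKM to 0.97, 0.975 and 1.13 FPKM (-0.58 ± 0.12, adjusted p = 0.0071). With all 12 libraries in the fit 3 rose and 2 fell. Groups of Ccne2 did not overlap.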
